A study of Homo sapiens with 12 samples.

Results

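The CCAAT/enhancer-binding proteins (C/EBPs) and PU.1 were read across a bead array series of 12 samples of THP-1, an established human monocytic leukaemia cell line. The genes were CEBPA, CEBPB, CEBPD, CEBPE, CEBPG, CEBPZ and SPI1, which encodes PU.1, and their probes were found by gene symbol and gene identifier, older symbols included. This gave 8 of the 47323 probes of the array, 1 for each C/EBP gene and 2 for SPI1. By CRISPR, lines 150-3 and 150-4 were targeted at miR-150 and lines p21-2 and p21-3 at p21, the protein of CDKN1A, while NT-2 and NT-3 were non-targeting lines. All 6 lines were infected with a virus for KLF4, a Krüppel-like transcription factor, and in parallel with an empty control virus (ECV). RNA came from day 5 of infection, when all cells, controls included, were 17 days past selection of the CRISPR construct. Each of the 6 combinations of target and virus holds 2 arrays, which limits the precision of every comparison. Whether lines of 1 target grew from separate cultures, and whether any is a single clone, is not stated, so p-values measure only the spread among these samples, part of which may be technical.

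C/EBP alpha, beta, delta, epsilon and gamma are basic leucine zipper proteins that bind DNA as pairs, with themselves or with one another. C/EBP alpha is needed for the step to granulocyte and monocyte progenitors, C/EBP beta is active in monocytes and macrophages and in emergency granulopoiesis, and C/EBP epsilon drives late granulocyte maturation. C/EBP gamma lacks a strong activation domain and pairs with the other members. CEBPZ shares the name, but it is a CCAAT-binding and nucleolar protein without the leucine zipper of the family. PU.1 is an ETS family factor that, together with the C/EBPs, sets up myeloid enhancers, and its dose bears on the choice between the monocyte and the granulocyte path.

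KLF-type factors bind CACCC and GC-rich boxes, and for that reason promoters are shown of both C/EBP genes that rose and of the one that fell in every line. They are RefSeq sequences of GRCh38.p14 running from 250 bases before to 50 bases after an annotated start site, 5′ to 3′ on the gene's strand, with CACCC on either strand (CACCC or GGGTG) in capitals. Such windows were read for 5 of the 7 genes, and CEBPD and SPI1 were not among them. CEBPB has 2 windows, of which the one at its downstream start site is given.
CEBPB promoter (chr20:50190580-50190879, plus strand): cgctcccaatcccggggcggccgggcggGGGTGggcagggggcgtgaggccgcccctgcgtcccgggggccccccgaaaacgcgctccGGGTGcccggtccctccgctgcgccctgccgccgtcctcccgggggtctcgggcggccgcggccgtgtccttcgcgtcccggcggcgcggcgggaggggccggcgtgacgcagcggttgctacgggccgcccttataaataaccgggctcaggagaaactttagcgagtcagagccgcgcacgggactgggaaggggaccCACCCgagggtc
CEBPE promoter (chr14:23119206-23119505, minus strand): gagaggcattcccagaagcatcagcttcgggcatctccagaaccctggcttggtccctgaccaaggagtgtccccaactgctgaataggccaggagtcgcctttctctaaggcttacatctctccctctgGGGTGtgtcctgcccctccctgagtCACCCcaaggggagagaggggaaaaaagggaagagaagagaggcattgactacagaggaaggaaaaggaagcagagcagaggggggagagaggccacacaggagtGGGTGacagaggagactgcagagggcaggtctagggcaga
CEBPZ promoter (chr2:37231547-37231846, minus strand): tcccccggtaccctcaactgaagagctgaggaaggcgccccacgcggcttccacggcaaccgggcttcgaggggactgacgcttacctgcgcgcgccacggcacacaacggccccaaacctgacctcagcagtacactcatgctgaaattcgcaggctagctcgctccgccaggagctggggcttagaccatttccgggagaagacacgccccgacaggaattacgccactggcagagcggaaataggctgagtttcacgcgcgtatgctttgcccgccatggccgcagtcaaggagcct
The CEBPB window held 3 CACCC matches and 5 matches to the GC box GGGCGG, both searched on either strand, and its other window 1 and 6. The windows of CEBPB overlap, so the CACCC match of the other window and some of its GC boxes are counted in both. The CEBPE window held 3 CACCC matches, 0 GC boxes and 1 match to GAGGAA, the core of the purine-rich box that PU.1 binds. The CEBPZ window held 0 CACCC matches, 0 GC boxes and 1 GAGGAA. The CEBPA window, not printed, held 1 CACCC match and 2 GC boxes. The windows of CEBPG, whose mean KLF4 effect did not pass the test below, held 1 and 2 CACCC matches. They held 0 and 2 GC boxes and are not printed. None of the windows read held TTNCNNAA, the letters of a C/EBP-type site (N is any base), on either strand. Of 35116 promoter windows of this length, 59.9% held CACCC, 45.0% GGGCGG, 27.9% GAGGAA and 36.8% TTNCNNAA. Matches of different motifs may overlap. These counts describe letters only and say nothing of binding.

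Values are the deposited log2 expression values, and a probe was tested when it lay above a background level of 7.27 (the 95th percentile of dim values mirrored about their commonest level) on at least 2 arrays. Of the 8 probes, 7 passed, each on all 12 arrays, so none passed through 1 group alone. In all, 21585 probes were tested with limma on all 12 arrays. Calls below are adjusted p-values under 0.05 after Benjamini-Hochberg adjustment over all probes tested. Monocyte markers were expressed in these THP-1 samples. All 8 of 8 with a probe (CD14, CD68, CSF1R, LYZ, ITGAM, FCGR1A, CD4 and TYROBP) lay above background on all 6 KLF4 arrays, and 7 of 8 on all 6 ECV arrays. The exception was CD14, which was near background with ECV (mean level 7.35) and lay above it on 5 ECV arrays. Of these 8 genes 6 rose and 0 fell, beside 18.3% of all genes higher and 23.3% lower, and their mean level per array ran from 10.2 to 10.9 with KLF4, against 9.44 to 9.59 with ECV. Of 10 markers of other cell types with a probe, 3 lay above background on all KLF4 arrays and 2 on all ECV arrays, while CD3E, CD3D, KRT8, HBB and COL1A1 did so on no array of either virus. Of the 3 that were tested 1 was called, the platelet chemokine PPBP, which was higher by 2.19 on the log2 scale (1.74 without NT-2 with KLF4). The mean level per array of all 10 ran from 7.34 to 7.62 with KLF4, against 7.20 to 7.34 with ECV. The part of these markers in the results below was not tested. In a bulk sample, more cells of a type and more RNA per cell cannot be told apart. Of the KLF4 probes, ILMN_1779857 read from 7.56 to 7.87 with KLF4 virus, against 7.62 to 7.97 with ECV. ILMN_2137789 read from 7.43 to 7.69 with KLF4 virus, against 7.70 to 7.95 with ECV, so its KLF4 arrays all lay below its ECV arrays. Neither probe was higher with KLF4 virus by its range, so they did not check the virus labels. The brighter CDKN1A probe read from 11.1 to 12.5 with KLF4, against 8.88 to 9.37 with ECV. With KLF4, the arrays of NT-2 and NT-3 stood farthest apart, with a median absolute difference of 0.131 over probes against 0.0849 to 0.099 in the other 5 groups. Results that rest on them are given with and without NT-2.

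Averaged over the 3 CRISPR targets, 6 of the 7 tested probes differed between KLF4 and ECV. CEBPB, CEBPE and both SPI1 probes rose, CEBPZ and CEBPA fell, and CEBPG did not pass the test. CEBPB had by far the largest of these changes, while the others stayed under 1.5-fold. Over all probes tested, 35.2% were called in this comparison, 15.1% higher and 20.1% lower, so calls of small changes were common on these arrays. Of the called probes 43.0% were higher, against 52.2% with cyclic loess, which called 3851 higher and 3527 lower. The median difference was 0.41 for the 7 tested probes, of which SPI1 gave 2, and -0.01 for all probes. With each gene read by its brightest tested probe, it was 0.29 for the members (0.22 without NT-2 with KLF4) and -0.01 for all genes. Without the NT-2 array with KLF4 the count was again 6, and without both NT-2 arrays it was 5, with CEBPA no longer called.

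**Figure D1:**
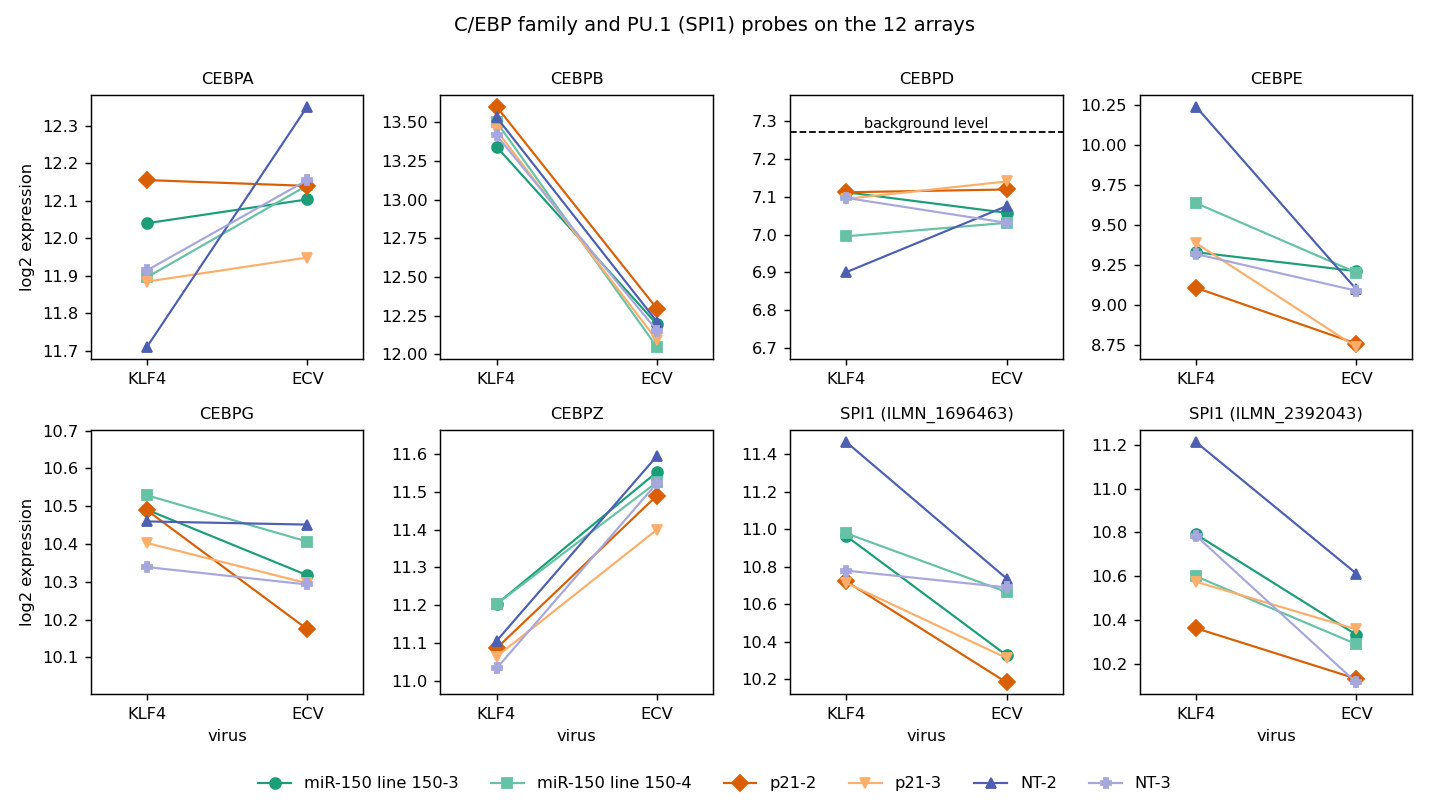
Log2 expression of the 8 probes (1 panel each, with its own vertical axis) with KLF4 virus at left and ECV at right; each line of a panel joins the 2 arrays of 1 CRISPR line. CEBPB lies above 13.3 with KLF4 and below 12.3 with ECV in all 6 lines, and CEBPD stays under the background level of 7.27, drawn as a dashed line.

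CEBPB (chr20:50190583-50192690, GRCh38) encodes C/EBP beta. In miR-150 lines 150-3 and 150-4 its log2 level was 13.34 and 13.50 with KLF4, against 12.20 and 12.05 with ECV. In p21-2 and p21-3 it was 13.60 and 13.45 with KLF4, against 12.30 and 12.09 with ECV, and in NT-2 and NT-3 it was 13.53 and 13.41, against 12.21 and 12.15. Every KLF4 array lay above every ECV array, and within a virus the ranges of the 3 targets overlapped. The mean rise was 2.47-fold (log2 difference 1.31, SE 0.059, limma adjusted p = 6.1e-10), with differences per line between 1.15 and 1.45. It was larger than that of 99.4% of tested probes, and ranked 136 of 21585 by size in either direction. The call held in each target and under every alternative run, with a mean difference between 1.27 and 1.36.

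SPI1 (chr11:47354860-47378547) was read by a probe annotated to transcript NM_001080547 (ILMN_1696463) and another annotated to NM_003120 (ILMN_2392043). On the first, the log2 level was 10.96 and 10.98 with KLF4 in lines 150-3 and 150-4, against 10.33 and 10.67 with ECV. In p21-2 and p21-3 it was 10.72 and 10.71 with KLF4, against 10.18 and 10.31 with ECV, and in NT-2 and NT-3 it was 11.46 and 10.78, against 10.74 and 10.69. Levels were higher with KLF4 in all 6 lines, but the viruses overlapped, since the p21 lines with KLF4 read about as high as the non-targeting lines with ECV. The mean rise was 1.37-fold (log2 difference 0.45, SE 0.0945, limma adjusted p = 0.0016). The second probe rose 1.33-fold (0.41, SE 0.0921, limma adjusted p = 0.00245). On it the level was 10.79 and 10.60 with KLF4 in lines 150-3 and 150-4, against 10.33 and 10.29 with ECV. In p21-2 and p21-3 it was 10.36 and 10.58 with KLF4, against 10.13 and 10.36 with ECV, and in NT-2 and NT-3 it was 11.21 and 10.79, against 10.61 and 10.12. The probes of the gene thus moved the same way in every line, yet differed in where the rise was least, which was NT-3 on the first (0.09) and p21-3 on the second (0.22). The mean rise passed the test under every alternative. On the first probe it was 0.34 without NT-2 with KLF4 and 0.56 without NT-3 with KLF4.

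CEBPE (chr14:23117306-23119255) encodes the factor of late granulocyte maturation. Its log2 level was 9.33 and 9.64 with KLF4 in lines 150-3 and 150-4, against 9.21 and 9.20 with ECV. In p21-2 and p21-3 it was 9.11 and 9.39 with KLF4, against 8.76 and 8.74 with ECV, and in NT-2 and NT-3 it was 10.24 and 9.32, against 9.10 and 9.09. All 6 lines were higher with KLF4, and NT-2 with KLF4 read well above the other arrays. The pairs of arrays with ECV differed by little within each target, and the p21 groups had the lowest mean of the 3 targets with either virus. The mean rise was 1.40-fold (log2 difference 0.49, SE 0.117, limma adjusted p = 0.00431). Its size depended on the non-targeting lines, at 0.33 without NT-2 with KLF4 and 0.64 without NT-3 with KLF4, and it passed the test in both cases.

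CEBPZ (chr2:37201612-37231596), which overlaps CEBPZOS in the annotation, had the narrowest spread of line differences among the tested probes. Its log2 level was 11.20 in both miR-150 lines with KLF4, against 11.55 and 11.53 with ECV. In p21-2 and p21-3 it was 11.09 and 11.06 with KLF4, against 11.49 and 11.40 with ECV, and in NT-2 and NT-3 it was 11.11 and 11.03, against 11.59 and 11.52. Every KLF4 array lay below every ECV array. The mean difference was -0.40 (SE 0.047, limma adjusted p = 1.1e-05), and lines ranged from -0.49 to -0.32. This fall passed the test under every alternative.

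CEBPA (chr19:33299934-33302534) was the second member that fell, but by less and not in every line. Its log2 level was 12.04 and 11.90 with KLF4 in lines 150-3 and 150-4, against 12.10 and 12.14 with ECV. In p21-2 and p21-3 it was 12.16 and 11.88 with KLF4, against 12.14 and 11.95 with ECV, and in NT-2 and NT-3 it was 11.71 and 11.91, against 12.35 and 12.16. The viruses overlapped, 5 of 6 lines were lower with KLF4, and NT-2 had both the highest level with ECV and the lowest with KLF4. The mean difference was -0.21 (SE 0.0665, limma adjusted p = 0.025). The call ended without both NT-2 arrays (-0.14, adjusted p = 0.122), with cyclic loess normalization (-0.15, adjusted p = 0.0854) and with the background subtracted (-0.21, adjusted p = 0.113). It also ended without the ECV array of NT-2 (-0.17, adjusted p = 0.0825), 150-4 (-0.20, 0.0624) or p21-2 (-0.17, 0.0844), and without the KLF4 array of 150-4 (-0.18, 0.0765) or p21-3 (-0.16, 0.0935).

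CEBPG (chr19:33373709-33382686), which lies near CEBPA on the same chromosome, did not pass the test on average (log2 difference 0.13, SE 0.053, limma adjusted p = 0.075). Its level ran from 10.34 to 10.53 with KLF4, against 10.17 to 10.45 with ECV. All 6 lines were higher with KLF4, by 0.01 to 0.31, with p21-2 the largest. The mean difference was called with cyclic loess (0.19, adjusted p = 0.0153), without NT-2 with ECV (0.16, adjusted p = 0.0493) and without NT-3 with KLF4 (0.15, adjusted p = 0.0405). The probe of CEBPD (chr8:47736913-47738164), a factor induced by cytokines in macrophages, lay below the background level on all 12 arrays. It read from 6.90 to 7.11 with KLF4, against 7.03 to 7.14 with ECV, and has no fold.

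**Figure D2:**
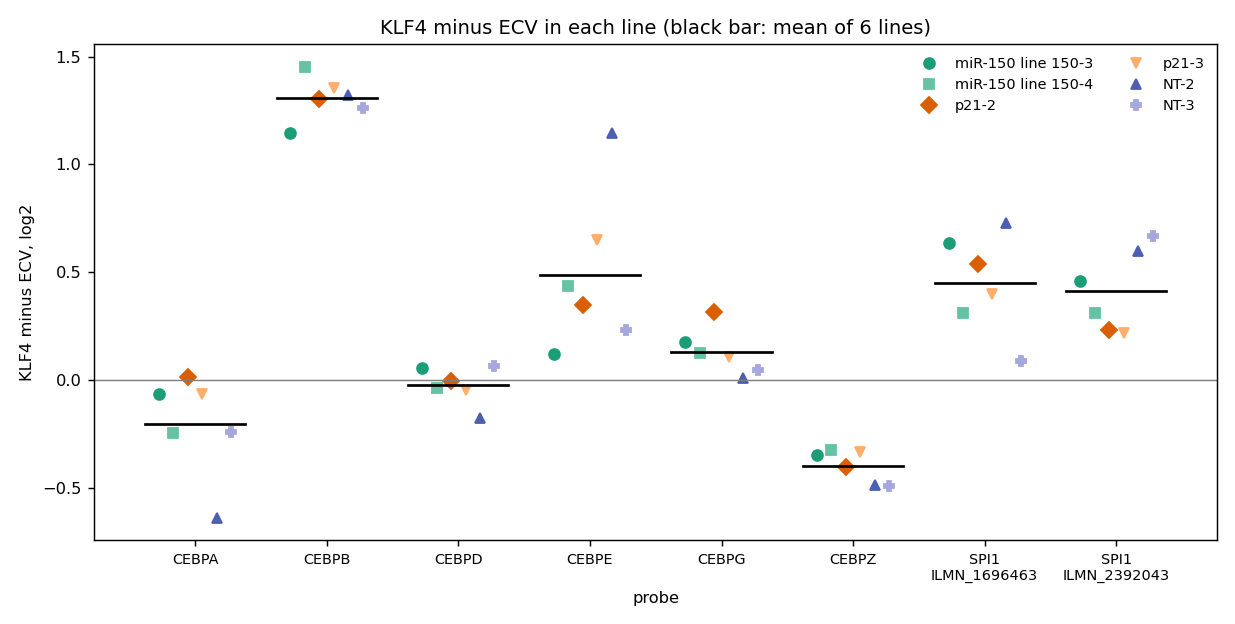
KLF4 minus ECV on the log2 scale for each probe in each of the 6 lines (points), with the mean over lines as a black bar. CEBPB and CEBPZ differ little between lines, whereas CEBPE runs from 0.12 in line 150-3 to 1.14 in NT-2 and CEBPA from -0.64 in NT-2 to 0.02 in p21-2.

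The labels name the line of each array, so each line gives 1 difference. In an exact two-sided sign-flip permutation test over the 6 lines, 6 probes, those of CEBPB, CEBPE, CEBPG, CEBPZ and SPI1, each reached p = 0.03125, the smallest that 64 sign patterns can give, with all lines on 1 side. In the same exact test CEBPA gave p = 0.0625 and CEBPD p = 0.656. These 8 p-values are unadjusted, and members with all lines on 1 side tie at the smallest p whatever the size of their change.

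Within targets, KLF4 was compared with ECV in each pair of lines. In miR-150 lines 2 of 7 tested probes were called, CEBPB (log2 difference 1.30, SE 0.102, limma adjusted p = 1.4e-06) and CEBPZ (-0.34, SE 0.0815, limma adjusted p = 0.013), beside 12.9% of all probes (6.27% higher and 6.66% lower). In p21 lines the same pair was called, CEBPB at 1.33 (SE 0.102, limma adjusted p = 9.9e-07) and CEBPZ at -0.37 (SE 0.0815, limma adjusted p = 0.0065), beside 14.9% of all probes (6.96% higher and 7.94% lower). In non-targeting lines 5 of 7 were called, beside 21.5% of all probes (9.75% higher and 11.7% lower). They were CEBPB (1.29), CEBPZ (-0.49), CEBPA (-0.44, limma adjusted p = 0.0131), CEBPE (0.69, limma adjusted p = 0.0254) and the second SPI1 probe (0.63, limma adjusted p = 0.0104). The last 3 calls ended without NT-2 with KLF4, where CEBPE was at 0.23 (adjusted p = 0.285), CEBPA at -0.34 (0.0788) and SPI1 at 0.42 (0.0654). Calls of these 3 were also lost when an ECV array was left out. CEBPA was at -0.34 (0.129) and CEBPE at 0.69 (0.106) without NT-2 with ECV, and CEBPE at 0.68 (0.118) and SPI1 at 0.39 (0.164) without NT-3 with ECV. Without NT-3 with KLF4, CEBPE was at 1.15 and the first SPI1 probe at 0.75.

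**Figure D3:**
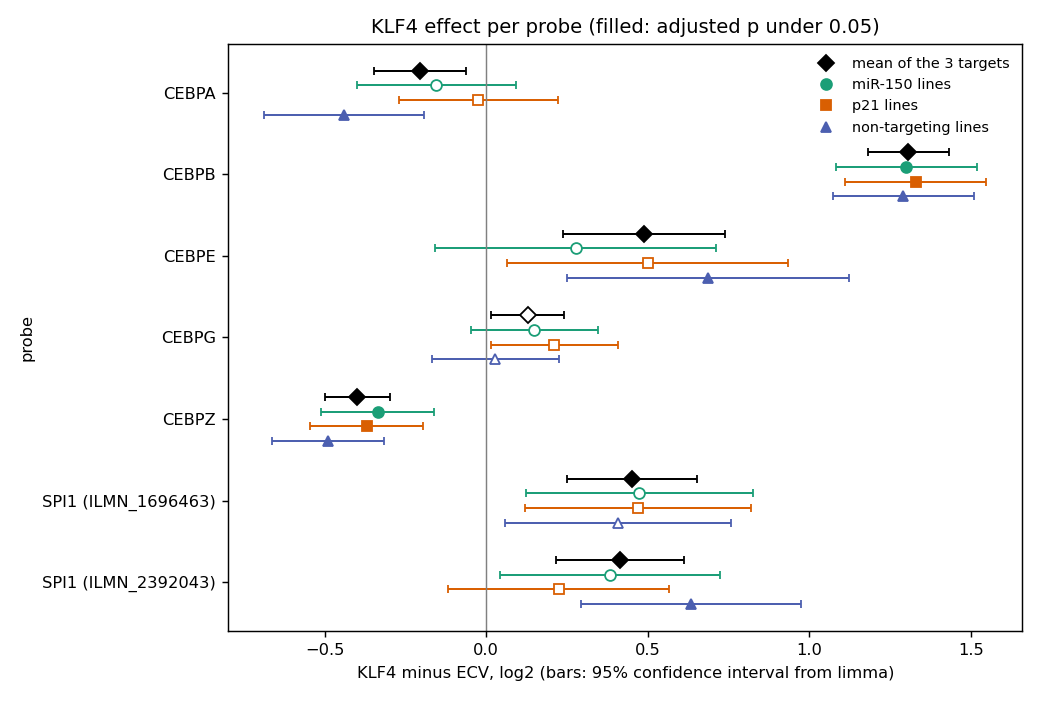
KLF4 minus ECV on the log2 scale from limma for the 7 tested probes, averaged over targets (diamonds) and within miR-150, p21 and non-targeting lines, with 95% confidence intervals as bars and filled symbols for adjusted p under 0.05. The 4 CEBPB estimates lie between 1.29 and 1.33, while the intervals of CEBPA, CEBPE and SPI1 are wide within targets.

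With the line as a replicate block, which the labels allow since a line received both viruses, the count was 4 in miR-150 lines, with both SPI1 probes added (0.47, adjusted p = 0.039, and 0.38, adjusted p = 0.0149). In p21 lines it was 3, with the first SPI1 probe added (0.47, adjusted p = 0.0366). Without the block the first SPI1 probe had limma adjusted p = 0.0746 in miR-150 lines and 0.07 in p21 lines. Leaving out either non-targeting array with KLF4 did not change the estimates in miR-150 and p21 lines, where CEBPB stayed at 1.30 and 1.33. More SPI1 and CEBPE probes were then called there. The share of all probes called in those fits is not given, so this is no result about the members. The call of CEBPZ in miR-150 lines ended without any of the 4 arrays of that comparison (adjusted p from 0.0652 to 0.101). In p21 lines it ended without p21-2 with ECV (adjusted p = 0.0702) or p21-3 with KLF4 (0.0568). It ended in both with the background subtracted (adjusted p = 0.111 in miR-150 lines and 0.0728 in p21 lines).

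Whether the KLF4 effect on these factors differs in edited lines was tested as an interaction. No member passed in either edited target, beside 0.00463% of all probes in each (limma, 0 of 7 tested probes for each; at an unadjusted p under 0.05, 0 of 7 for miR-150 and 1 of 7 for p21). For CEBPB the effect differed by 0.01 in miR-150 lines (95% confidence interval -0.30 to 0.32) and by 0.04 in p21 lines (-0.27 to 0.35), relative to non-targeting lines. These intervals are narrow beside the rise of 1.31. For CEBPA the difference was 0.29 in miR-150 lines (-0.06 to 0.63) and 0.42 in p21 lines (0.07 to 0.76, limma adjusted p = 0.845), the one with the unadjusted p under 0.05. Its size leaned on NT-2, since CEBPA changed by -0.64 in NT-2 and -0.24 in NT-3, against -0.02 in p21 lines. For CEBPE the difference was -0.41 (-1.03 to 0.21) in miR-150 lines and -0.19 (-0.80 to 0.43) in p21 lines. For the first SPI1 probe it was 0.07 (-0.43 to 0.56) and 0.06 (-0.43 to 0.56), and for the second -0.25 (-0.73 to 0.23) and -0.41 (-0.89 to 0.07). For CEBPZ it was 0.15 (-0.09 to 0.40) and 0.12 (-0.13 to 0.37), and for CEBPG 0.12 (-0.16 to 0.40) and 0.18 (-0.09 to 0.46). The CEBPE and SPI1 values rested on the non-targeting arrays with KLF4. For the first SPI1 probe they were 0.41 for miR-150 and 0.40 for p21 without NT-2, and turned to -0.28 for both without NT-3. For the second they were -0.04 and -0.20 without NT-2 and -0.46 and -0.62 without NT-3. Those of CEBPE turned to 0.05 for miR-150 and 0.27 for p21 without NT-2, and were -0.87 and -0.65 without NT-3.

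Edited lines were also compared with non-targeting lines within each virus, and 0 of 7 tested probes passed in each of these 4 comparisons (limma). Over all probes 0.0417% were called for p21 with KLF4 and 0% in the other 3. At an unadjusted p under 0.05 the counts were 0 of 7 for miR-150 with KLF4, 0 for miR-150 with ECV, 3 for p21 with KLF4 and 1 for p21 with ECV. The 3 were CEBPE (log2 difference -0.53, limma adjusted p = 0.397) and the SPI1 probes (-0.40, limma adjusted p = 0.425, and -0.53, limma adjusted p = 0.317). The 1 was the first SPI1 probe, at -0.46 (limma adjusted p = 0.846), where p21 lines with ECV read 10.18 and 10.31, against 10.74 and 10.69 in non-targeting lines with ECV. The second SPI1 probe differed by -0.12 in that comparison (95% confidence interval -0.46 to 0.22). Without NT-3 with KLF4, CEBPE and both SPI1 probes passed the test with KLF4 virus. Their differences were then -0.76, -0.49 and -0.52 for miR-150, and -0.99, -0.75 and -0.74 for p21. Without NT-2 with KLF4 none did, and they were 0.17, 0.19 and -0.09 for miR-150, and -0.07, -0.06 and -0.32 for p21.

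In order of level, each SPI1 probe was highest in non-targeting lines with KLF4, followed by miR-150 and p21 lines with KLF4, and then by non-targeting, miR-150 and p21 lines with ECV. On the first probe the top place rested on NT-2, since NT-3 with KLF4, at 10.78, read below the miR-150 mean of 10.97. On the second probe 4 of the 5 neighbouring groups in this order overlapped, and on the first 2 of 5 did. CEBPE was highest in non-targeting, miR-150 and p21 lines with KLF4, whose ranges overlapped each other and whose first place also rested on NT-2 (9.32 in NT-3 against a miR-150 mean of 9.49), then in miR-150, non-targeting and p21 lines with ECV, whose ranges did not. For CEBPB and CEBPZ the 3 KLF4 groups stood apart from the 3 ECV groups. CEBPA ran from non-targeting lines with ECV, the highest group, to non-targeting lines with KLF4, the lowest, with the p21 groups of the viruses overlapping between them.

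The partners and targets of these factors were read from lists of genes, each gene by its brightest tested probe, chosen with earlier results of these data known. Among 11808 genes with a tested probe, 41.6% were called for the mean KLF4 effect, 18.3% higher and 23.3% lower, with a median difference of -0.01. Of 11 partners and regulators of the C/EBPs, 6 rose, 0 fell and 5 did not pass, with a median difference of 0.45. DDIT3, also called CHOP, which pairs with C/EBPs and blocks their binding to classical sites, rose by 0.80 (SE 0.0544, limma adjusted p = 4.1e-08). TRIB2, a pseudokinase that directs C/EBP alpha to degradation, rose by 0.67, and its relative TRIB1 by 0.68 (0.42 without NT-2 with KLF4). The basic leucine zipper factors ATF3, NFIL3 and ATF5 rose by 0.55, 0.52 and 0.45. ATF4 (0.08), BATF (-0.14), BATF3 (0.15), COP1, the ubiquitin ligase that works with TRIB proteins (0.08), and the chaperone CALR (0.05) did not pass. Without NT-2 with KLF4, 6 of the list rose and 1, BATF, fell (-0.19, adjusted p = 0.0126).

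Of 7 tested partners and antagonists of PU.1, 2 rose and 3 fell, with a median difference of -0.05. JUN, which coactivates with PU.1, rose by 0.79 (SE 0.103, limma adjusted p = 2.7e-05). IRF8, a DNA-binding partner of PU.1 in monocyte and dendritic cell development, fell by 0.71 (SE 0.0653, limma adjusted p = 9.0e-07). GFI1, a repressor that favours granulocytes over monocytes, fell by 0.93, and EGR1, a zinc finger factor linked to macrophage differentiation, fell by 0.56. RUNX1, which acts upstream of SPI1, rose by 0.22, while its partner CBFB (0.10) and IRF4 (-0.05) did not pass. Of 14 tested ETS factors other than PU.1, 3 rose, 2 fell and 9 did not pass, with a median of -0.03. ELF4 rose by 0.75 (SE 0.0536, limma adjusted p = 6.4e-08), FLI1 by 0.36 and ETS2 by 0.32, whereas ETV6 fell by 0.30 and ETS1 by 0.25. ETS1 was at 0.01 in non-targeting lines, against -0.31 in miR-150 and -0.45 in p21 lines, and neither edited target passed the test of the difference from non-targeting lines (-0.32, limma adjusted p = 0.982, for miR-150 and -0.45, limma adjusted p = 0.845, for p21). Without NT-2 with KLF4, 3 ETS factors rose and 3 fell, ELF1 (-0.19, adjusted p = 0.0211) being the one added.

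**Figure D4:**
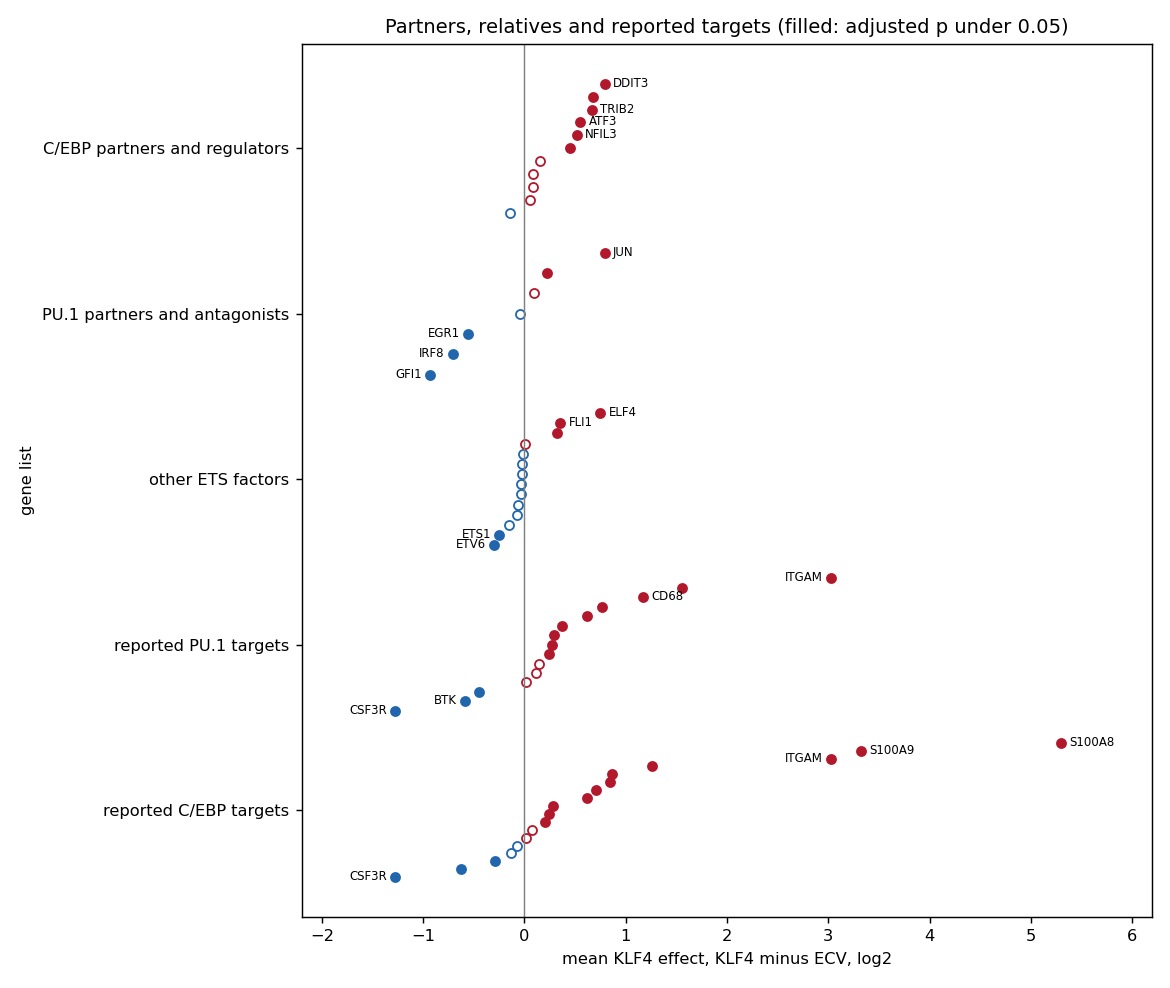
Mean KLF4 effect (log2, horizontal axis) of the tested genes of 5 lists, 1 point a gene, red above and blue below 0, filled where the adjusted p is under 0.05, with the 4 genes of smallest p named in each list. Of 11 C/EBP partners and regulators 6 lie to the right and are called, and both target lists hold called genes on either side.

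Of 15 tested genes reported as PU.1 targets, 9 rose, 3 fell and 3 did not pass, with a median difference of 0.27. ITGAM, the alpha chain of the CD11b/CD18 integrin, rose by 3.03 (SE 0.0701, limma adjusted p = 6.1e-13), TYROBP, an adaptor of activating receptors, by 1.56, and CD68, a lysosomal protein of macrophages, by 1.17 on its brightest probe and by 0.58 on the lowest of its 3 tested probes. CSF3R, the receptor of granulocyte colony-stimulating factor, fell by 1.28 (SE 0.0555, limma adjusted p = 4.4e-10). BTK, a kinase of B cells and myeloid cells, fell by 0.59 and FES, a myeloid kinase, by 0.45. CSF1R, the receptor of macrophage colony-stimulating factor, was at 0.01 (limma adjusted p = 0.934). Without NT-2 with KLF4 the counts were again 9 and 3, and without both NT-2 arrays they were 8 and 3.

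Of 18 tested genes reported as C/EBP targets, 11 rose, 3 fell and 4 did not pass, with a median of 0.26. This list shares CSF3R, ITGAM, LYZ and CD14 with that of PU.1. The calcium-binding proteins S100A8 and S100A9 rose by 5.30 and 3.32. Among cytokines, IL1B rose by 1.26, CXCL8 by 0.85 and CCL3 by 0.70, and TNF by 0.28. CCL3 was at 0.30 in miR-150 and 0.18 in p21 lines, against 1.63 in non-targeting lines, with no test of these differences passed (limma adjusted p = 0.982 and 0.845). Its mean was 0.36 without NT-2 with KLF4. The rise was also largest in non-targeting lines for IL1B, at 1.56 (1.23 in miR-150 and 0.98 in p21 lines). The same held for CXCL8, at 1.31 (0.66 and 0.57), and TNF, at 0.51 (0.20 and 0.12). No test of these differences passed either. Without NT-2 with KLF4 the means over targets of IL1B, CXCL8 and TNF were 1.08, 0.71 and 0.19. The rise of IL1B was then no longer largest in non-targeting lines, so that order rested on this array. For CXCL8 and TNF the rise was still largest there, but by less. IL6, counted among the 11, lay above background on 4 KLF4 arrays and 0 ECV arrays, so it passed the filter through KLF4 alone. Its KLF4 mean was 1.04-fold the background level, and this mean includes KLF4 arrays that did not lie above that level. Mean levels were 7.33 with KLF4 and 7.12 with ECV (limma adjusted p = 0.0327). Without NT-2 with KLF4 the difference was 0.13, against 0.21 with it, and IL6 did not pass. Of the primary granule genes, ELANE, neutrophil elastase, rose by 0.87, PRTN3 and AZU1 were lower, at -0.63 and -0.29, and MPO, at -0.08, did not pass. MPO was near background, with mean levels of 7.23 with KLF4 and 7.31 with ECV, and lay above it on 1 KLF4 array and 4 ECV arrays. Of the genes of later granules, LTF (0.08), LCN2 (0.02) and CAMP (-0.13) did not pass, with mean levels with KLF4 of 7.28, 7.22 and 7.57 against a background level of 7.27. Without NT-2 with KLF4, 10 rose and 3 fell.

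Genes with levels most like those of a member were found by Pearson correlation over the 12 arrays, which share the contrast of viruses, so this is a description. CEBPB was most like HLA-B (r = 0.995), a heavy chain of MHC class I, and IQCK (0.994). CEBPZ was most like SNHG9 (0.982), a small nucleolar RNA host gene, and DMAC2L (0.980). CEBPE was most like DUSP1, a phosphatase of MAP kinases, and H1-10, a linker histone (0.95 for both). SPI1 on its first probe was most like RASSF5 (0.948) and TRIM38 (0.938), CEBPA like PABIR1 (0.940) and RPL4 (0.939), and CEBPG like SLC35B1 (0.895) and PSMD1 (0.880).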

How the data were processed

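Biotin-labelled RNA of 12 THP-1 samples was hybridised to Illumina bead arrays, per the labels' protocols. The values used are log2 expression values deposited by the authors for 47323 probes. Array medians were all near 7.17. No source used here says how the authors corrected background or normalized. Raw intensities are also deposited, but none of their 24 value columns could be tied to a label, so they were left out and the planned neqc alternative was not run.

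Probes were named from the platform annotation, updated by gene identifier with RefSeq genes of GRCh38. The annotation gave 1 symbol to 30113 probes, several to 8 and did not list 17202. The members and gene lists were chosen with earlier results of these data known. The background level was 7.27, from values mirrored at the commonest level, 7.09. A probe above it on at least 2 arrays was kept, which left 21585 probes. One mean per group was fitted to the 12 arrays (limma 3.58.1, R 4.3.3, lmFit and eBayes, 6 residual degrees of freedom), and p-values were adjusted by Benjamini-Hochberg over all kept probes. The fit was tested on simulated arrays.

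Genes were named by rule: all members, the 4 tested genes with the smallest p in each other list, and the 2 genes most correlated with each member. Other list genes in the text were chosen after their values were seen. Array pairs of the same line share that line per the labels, and the correlations of their deviations from the group means were 0.0749, -0.0422 and 0.0651 in non-targeting, miR-150 and p21 lines. The line was not in the main fit and was a block in an alternative. The other alternatives were 2 filters, cyclic loess, background subtraction (offset 16), 1 probe per gene, a trended robust prior, array weights, only the groups compared, and each array left out. Leaving out both NT-2 arrays was added after seeing the data. Figures used matplotlib 3.10.9 under Python 3.11.15.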

Additional observations from a re-analysis of the deposited data

How the results depend on the processing

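Depending on the array left out, the number of called member probes ran from 5 to 7 for the mean KLF4 effect, from 2 to 6 in non-targeting lines, from 1 to 4 in miR-150 lines and from 1 to 4 in p21 lines. It ran from 0 to 1 for each difference of KLF4 effects, from 0 to 3 for edited against non-targeting lines under KLF4 virus, for miR-150 and p21 alike, and was 0 in all these fits with ECV. A fit that leaves a group with a lone array assumes that this array varies like the other groups. With the line as a replicate block, the count in miR-150 lines was 4 against 2 without it, and the block changed no other call than those of SPI1 given in the report. With the background subtracted, the counts in non-targeting, miR-150 and p21 lines were 2, 1 and 1. From only the groups compared they were 2, 4 and 4, and without both NT-2 arrays 3, 4 and 4. Array weights gave 4 in p21 lines. The cause of these shifts was not tested, and the share of all probes called in each of these fits is not given. The counts are therefore no results about the members. Of 15 called results for single probes, 322 values were computed under the alternatives. Direction was the same in all of them, and 32 no longer passed the test, none of them for CEBPB. Background subtraction by any method rests on deposited values whose own correction is unknown, which limits the folds of dim probes. The paired test over 6 lines called 6 of 8 probes also with cyclic loess and with the background subtracted. With 5 lines it could not pass the threshold, so leaving out a line was not run for it.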
